A study of Mus musculus with 6 samples.

Results

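Postsynaptic density scaffolds and neurogranin were followed here as a set of 10 genes, Dlg3, Dlg4, Dlgap1, Dlgap2, Dlgap3, Shank1, Shank2, Shank3, Homer1 and Nrgn. They were chosen by name, as the array rows annotated with 1 gene only, and all 10 had such a row among 19938 genes measured that way. The set and the gene lists given beside it were chosen with earlier results of these data known. The 10 genes had 13 rows, because Dlgap1 had 2 and Shank2 had 3. For each of these genes the row annotated with the most accessions stands for the gene, and the other rows are given beside it. Whole brains of mouse embryos were collected at embryonic day 16.5 and their RNA was read with 1 Affymetrix Mouse Gene 1.0 ST array per brain. Of the 6 embryos, 3 were wild type and 3 carried Tdp2Δ1-3, a deletion in Tdp2, whose product removes trapped topoisomerase II peptide from DNA ends. The question is how transcript abundance in the developing brain differs without this enzyme. The labels name no treatment or age difference between the genotypes, describe the brains of a genotype as biological replicates, and do not say which embryos were littermates. The series text speaks of 3 wild-type and mutant pairs, and no label says which brains formed a pair.

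The postsynaptic density is the protein mesh under the membrane of excitatory synapses. Dlg proteins bind the tails of glutamate receptors through PDZ domains, Dlgap proteins join Dlg to Shank, and Shank is tied through Homer to metabotropic glutamate receptors. Neurogranin, the product of Nrgn, is not a scaffold. It is a small neuronal protein that holds calmodulin near the postsynaptic membrane when calcium is low. Transcripts of many of these genes increase as neurons form synapses, which in the mouse forebrain happens largely after birth.

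Every value is a log2 intensity, on the scale that the normalization method returns, centred on the gene's median over the 6 arrays. Differences between arrays survive this step but the level of a gene does not, so levels cannot be compared between genes and the presence of brain markers could not be checked. It also makes the middle pair of values of each gene mirror each other around 0. The medians of the arrays ran from -0.011 to 0.014. With 3 arrays per genotype, their number limits the precision. Tdp2 itself was 4.21-fold lower in the mutants, with a difference of -2.07 ± 0.10 (SE, n = 3 per genotype, limma adjusted p = 0.00035), and its row may include probes outside the deletion.

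Of the 10 genes, 5 fell in the mutants and none rose. A gene was called at an adjusted p under 0.05 by limma's moderated test over 23410 rows. By that rule 6.47% of all rows were called, 4.13% lower and 2.34% higher in the mutants. The 5 genes were Nrgn, Dlgap1, Shank1, Dlgap3 and Shank2. All 10 differences were negative, against 43.2% of all rows, and their median was -0.23 against 0.013 over all rows. Dlg4 turned to 0.0033 after cyclic loess normalization and Dlg3 to 0.04 with array weights. The loess step was run on centred values, so it did not follow intensity, and what it removed was not tested. At 1.5-fold or more, the limit of the series text, Nrgn and Dlgap1 were called, against 0.641% of all rows. Values of wild-type and mutant brains did not overlap in 8 of the 10 genes, against 25.7% of all rows. Because the genes were chosen with earlier results of these data known, these counts describe the set and are not a test of it. In whole brain, fewer cells of a type and less RNA per cell cannot be told apart.

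**Figure D1:**
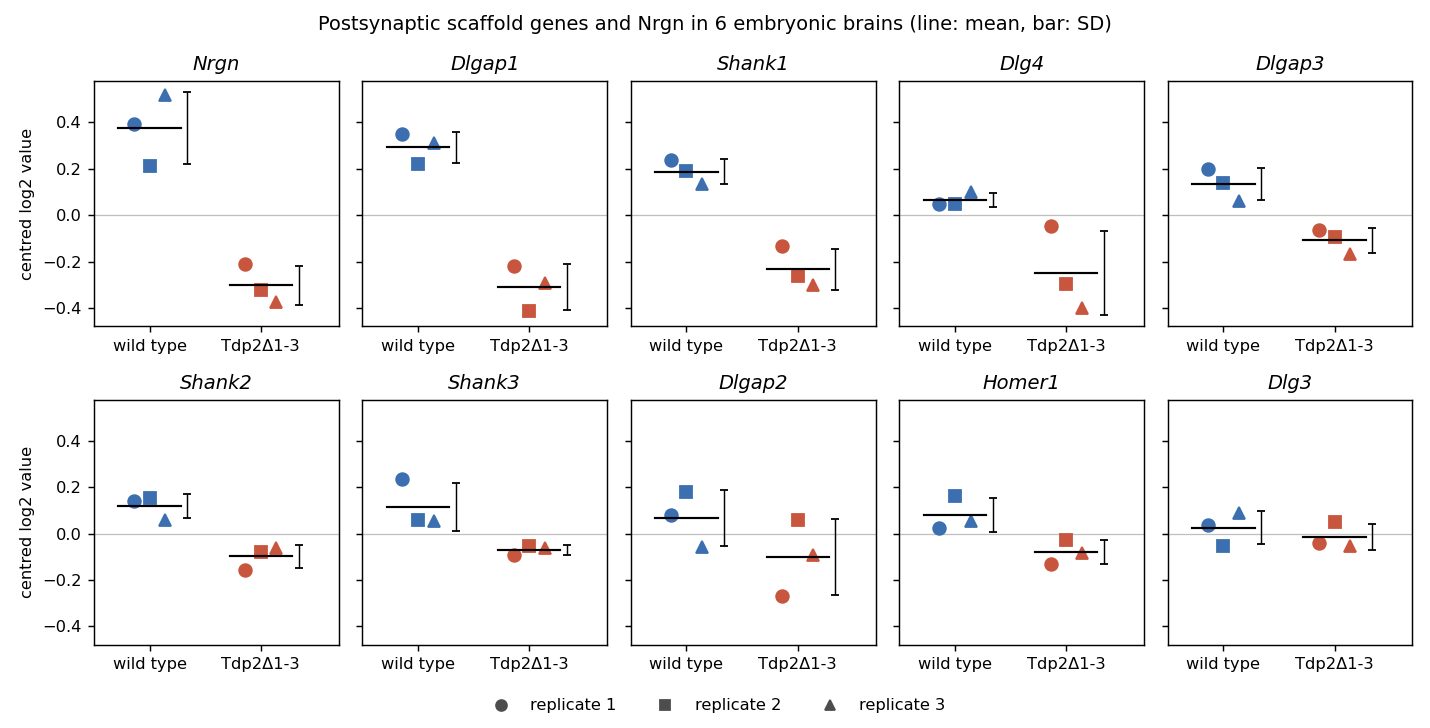
Centred log2 values of the 10 genes in each brain, 1 panel per gene, ordered by the size of the difference. Symbols mark the replicate number, lines the mean and bars the SD of 3 brains, and the genotypes overlap in Dlgap2 and Dlg3 only.

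Nrgn had the largest difference of the set. Its centred log2 values were 0.39, 0.21 and 0.52 in wild-type replicates 1 to 3 and -0.21, -0.32 and -0.37 in the mutants. All wild-type brains lay above all mutant brains, and the wild types were more spread (SD 0.16) than the mutants (SD 0.08). On the log2 scale Nrgn fell by 0.68 ± 0.08 (SE, n = 3 brains per genotype), which is 1.60-fold (limma adjusted p = 0.00705). Without mutant replicate 2 the difference was -0.67 and the call was lost (limma adjusted p = 0.053). That fit called 145 of all rows, against 1515 with all arrays. The fall passed with any other single array left out.

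Dlgap1, the Dlgap gene with the largest difference, was the only one of the 10 called with any 1 array left out. Its values were 0.35, 0.22 and 0.31 in the wild-type brains, against -0.22, -0.41 and -0.29 in the mutants. The groups did not overlap, and the spread within each genotype was small against the gap between them. Dlgap1 fell by 0.60 ± 0.06 (SE), 1.52-fold (limma adjusted p = 0.00466), and by 0.55 to 0.65 with 1 array left out. The other Dlgap1 row, annotated with 3 accessions against 14, held 0.33, 0.18 and 0.07 in the wild-type brains, against -0.07, -0.16 and -0.15 in the mutants. That row also passed, with a smaller difference of -0.31 ± 0.07 (limma adjusted p = 0.0376).

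The sequences just before annotated transcript starts are shown for called genes that the RefSeq promoter table (GRCm38.p6) holds, and for Dlg3, the gene with the smallest difference. Each is 250 bases, written 5′ to 3′ on the strand of the gene and ending at the base before the start. Capitals mark matches on either strand to the GC box GGGCGG, the CCAAT box, the TATA box TATAAA, the E-box CACGTG, the cyclic AMP element TGACGTCA, the Egr site GCGTGGGCG and TTCAGCACC, part of the site bound by the neuronal repressor REST. Shown in turn are Nrgn (chr9:37552746-37552995, minus strand), both starts of Dlgap1 (chr17:69968823-69969072 and chr17:70561497-70561746, plus strand), Dlgap3 (chr4:127172630-127172879, plus strand) and the downstream start of Dlg3 (chrX:100777021-100777270, plus strand).
Nrgn: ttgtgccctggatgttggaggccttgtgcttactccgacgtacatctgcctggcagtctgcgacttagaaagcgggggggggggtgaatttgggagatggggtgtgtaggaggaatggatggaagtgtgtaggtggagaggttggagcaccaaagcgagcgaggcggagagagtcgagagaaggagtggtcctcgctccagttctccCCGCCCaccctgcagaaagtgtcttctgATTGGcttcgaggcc
Dlgap1, upstream start: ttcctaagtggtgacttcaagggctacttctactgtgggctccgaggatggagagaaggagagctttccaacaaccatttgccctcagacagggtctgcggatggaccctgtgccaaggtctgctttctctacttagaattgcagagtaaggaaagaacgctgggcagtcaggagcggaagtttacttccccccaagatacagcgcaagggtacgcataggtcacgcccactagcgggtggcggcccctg
Dlgap1, downstream start: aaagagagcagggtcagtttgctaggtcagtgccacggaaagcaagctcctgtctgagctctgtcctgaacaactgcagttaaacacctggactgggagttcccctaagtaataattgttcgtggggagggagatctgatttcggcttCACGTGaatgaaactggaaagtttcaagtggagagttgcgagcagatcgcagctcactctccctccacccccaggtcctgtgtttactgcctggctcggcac
Dlgap3: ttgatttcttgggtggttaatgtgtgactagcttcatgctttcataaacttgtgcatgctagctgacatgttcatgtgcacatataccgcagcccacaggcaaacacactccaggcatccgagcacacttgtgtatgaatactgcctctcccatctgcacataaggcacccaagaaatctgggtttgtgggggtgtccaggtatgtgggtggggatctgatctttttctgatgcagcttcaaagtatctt
Dlg3: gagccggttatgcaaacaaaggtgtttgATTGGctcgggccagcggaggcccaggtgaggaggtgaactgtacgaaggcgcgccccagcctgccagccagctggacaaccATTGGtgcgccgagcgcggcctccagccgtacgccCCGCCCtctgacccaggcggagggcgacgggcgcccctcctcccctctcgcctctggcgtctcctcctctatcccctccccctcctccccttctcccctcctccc

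Of the called genes, Nrgn, Dlgap1 and Dlgap3 had windows in the table, and no motif of this list was found in all 3 genes. The Nrgn window held 1 GC box and 1 CCAAT box, the downstream Dlgap1 window 1 E-box, and the upstream Dlgap1 and the Dlgap3 windows none of the 7 motifs. The Dlg3 window shown held 1 GC box and 2 CCAAT boxes, and the upstream Dlg3 window none of the 7. Among 32851 windows of the same length over all genes, 32.7% held a GC box, 33.8% a CCAAT box and 6.0% the E-box. The windows also differed in CpG count, with 2 in Dlgap3, 7 and 9 at the starts of Dlgap1, 11 in Nrgn, and 7 and 19 at the upstream and downstream starts of Dlg3, against a median of 6 over all windows. The table held 12 windows of 7 of the 10 genes, the others being Dlgap2, Shank1 and Shank2. Among the other windows, that of Shank3 stood out with 31 CpGs, 4 GC boxes and 1 Egr site, the latter present in 0.54% of all windows. A match is a run of letters in the window, and binding was not measured.

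The 3 Shank genes, which encode the large scaffolds that hold Dlgap and Homer, had differences of -0.42, -0.22 and -0.19. Shank1 values were 0.24, 0.19 and 0.13 in the wild-type brains, against -0.13, -0.26 and -0.30 in the mutant brains, with no overlap. Shank1 fell by 0.42 ± 0.06 (SE), which is 1.34-fold (limma adjusted p = 0.00915). Its call was lost without mutant replicate 2 only (limma adjusted p = 0.0581), where the difference was -0.41 and 145 of all rows were called. Shank2 values were 0.14, 0.16 and 0.06 in the wild-type brains, against -0.15, -0.08 and -0.06 in the mutants. Every wild-type brain was again above every mutant brain, but wild-type and mutant replicate 3 lay close together. Shank2 fell by 0.22 ± 0.05 (limma adjusted p = 0.0397), a call that was lost with any array but wild-type replicate 3 left out (adjusted p between 0.0627 and 0.152) and when all rows were tested (0.0511). The other 2 Shank2 rows, each annotated with a single accession, had differences of -0.03 (95% interval -0.16 to 0.11) and 0.0087 (-0.15 to 0.17) and were not called. Shank3 was not called (-0.19 ± 0.06, limma adjusted p = 0.106). Its wild-type values of 0.24, 0.06 and 0.05 lay above the mutant values of -0.09, -0.05 and -0.06, and its difference was -0.13 when wild-type replicate 1, the highest, was left out.

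The other Dlgap genes had smaller differences than Dlgap1. Dlgap3 values were 0.20, 0.14 and 0.06 in the wild-type brains, against -0.06, -0.09 and -0.17 in the mutants. Dlgap3 fell by 0.24 ± 0.05 (SE, limma adjusted p = 0.0359). Its call held when wild-type replicate 3 or mutant replicate 1 was dropped and was lost with any other array left out, where the adjusted p lay between 0.0919 and 0.131. Dlgap2 values were 0.08, 0.18 and -0.06 in the wild-type brains, against -0.27, 0.06 and -0.09 in the mutants. These overlapped, since mutant replicate 2 was above wild-type replicate 3, and the spread within each genotype was among the widest of the set. Dlgap2 had a difference of -0.17 with a 95% interval from -0.38 to 0.04 (limma adjusted p = 0.345).

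Dlg4 and Dlg3 encode the receptor-binding scaffolds at the membrane face of the density. Dlg3 is the form known for its early presence in young neurons, and Dlg4 that of mature synapses. Dlg4 values were 0.048, 0.050 and 0.10 in the wild-type brains, against -0.048, -0.30 and -0.40 in the mutants. The wild types were nearly equal (SD 0.03), while mutant replicate 1 lay close to them and far from the other mutants (SD 0.18). Dlg4 was not called (-0.31 ± 0.08, limma adjusted p = 0.0699). Its difference was -0.41 and passed without mutant replicate 1 (adjusted p = 0.0066), passed with array weights (-0.34, adjusted p = 0.00501), and was 0.0033 after cyclic loess normalization. Dlg3 values were 0.04, -0.05 and 0.09 in the wild-type brains, against -0.04, 0.05 and -0.05 in the mutants, and the groups overlapped. The Dlg3 difference was -0.04 with a 95% interval from -0.16 to 0.09 (limma adjusted p = 0.761), and it was 0.04 with array weights.

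Homer1, the adaptor between Shank and metabotropic receptors, was not called. Its values were 0.03, 0.16 and 0.05 in the wild-type brains, against -0.13, -0.03 and -0.08 in the mutants. The genotypes did not overlap, but the gap between the nearest brains, wild-type replicate 1 and mutant replicate 2, was small. The difference was -0.16 ± 0.05 (limma adjusted p = 0.122). Homer1 passed with array weights (-0.19, adjusted p = 0.0192). The row was annotated with 12 accessions, so its transcript forms were not separated.

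**Figure D2:**
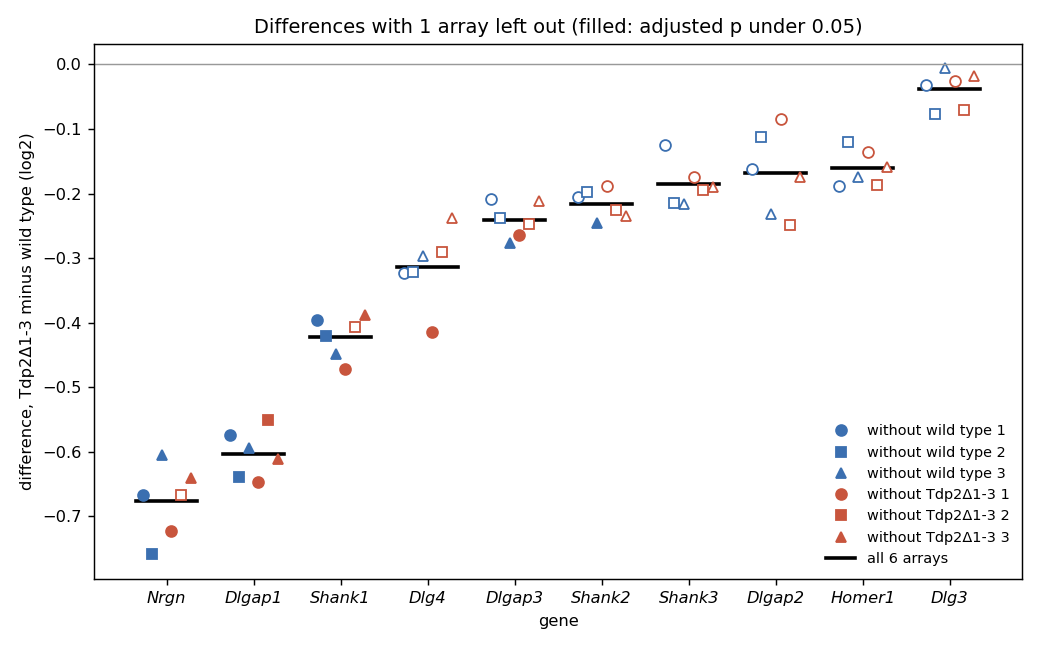
Difference of each gene, mutant minus wild type on the log2 scale, with all 6 arrays (black line) and with each array left out (symbols). Filled symbols passed at a limma adjusted p under 0.05, as all 6 did for Dlgap1 and none did for Dlg3, Dlgap2, Shank3 and Homer1.

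The mutant brains did not order the genes alike. Mutant replicate 1 held the highest mutant value in 5 genes, Dlg4, Dlgap1, Dlgap3, Nrgn and Shank1, and the lowest in 4 others, Dlgap2, Homer1, Shank2 and Shank3. Mutant replicate 3 held the lowest value in Dlg3, Dlg4, Dlgap3, Nrgn and Shank1. Averaged over the 10 genes the mutants nevertheless lay close together, at -0.14, -0.14 and -0.19, and the wild types at 0.18, 0.13 and 0.13.

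Whether paralogs changed unequally was tested within arrays, where a shift of a whole array cancels. Over 7 pairs, an exact two-sided permutation test of 3 against 3 brains cannot go below p = 0.10, or 0.175 after Benjamini-Hochberg adjustment here. That smallest value was reached by 4 pairs whose genotypes did not overlap. Shank1 minus Shank2 was 0.10, 0.04 and 0.07 in the wild-type brains, against 0.02, -0.18 and -0.24 in the mutants, a difference of -0.21. Shank1 minus Shank3 had a difference of -0.24, Dlgap1 minus Dlgap3 of -0.36 and Dlg3 minus Dlg4 of 0.28. The genotypes overlapped for Dlgap1 minus Dlgap2 (-0.43, exact p = 0.20), Dlgap2 minus Dlgap3 (0.07, exact p = 0.60) and Shank2 minus Shank3 (-0.03, exact p = 0.70). This test therefore does not decide whether paralogs changed unequally.

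Of 7 relatives outside the set, 1 fell and 1 rose. Dlg2, a further receptor-binding scaffold of the Dlg family, fell by 0.57 ± 0.05 (SE, limma adjusted p = 0.00412), with values of 0.34, 0.30 and 0.21 in the wild-type brains, against -0.34, -0.31 and -0.21 in the mutants. Dlgap5, a family member by sequence that acts on the mitotic spindle of dividing cells, rose by 0.48 ± 0.10 (limma adjusted p = 0.0305). Its values were -0.44, -0.11 and -0.20 in the wild-type brains, against 0.11, 0.39 and 0.19 in the mutants, the reverse order of the genotypes. Dlg1, Dlg5, Dlgap4, Homer2 and Homer3 were not called, with differences from -0.12 to 0.12. Dlg2 passed with any single array left out, and Dlgap5 only when that array was mutant replicate 1.

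**Figure D3:**
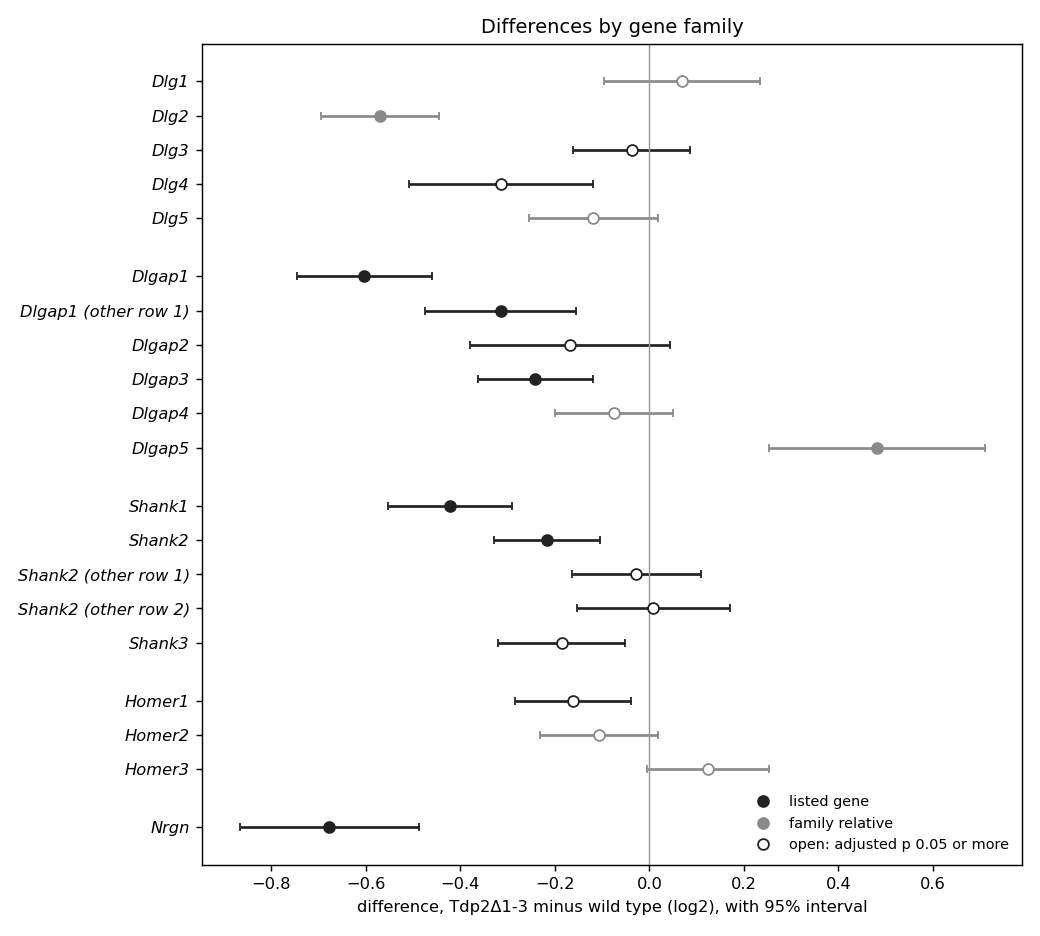
Differences, mutant minus wild type on the log2 scale, with 95% intervals, for every row of the 10 genes (black) and for 7 relatives (grey), by family. Filled points passed at a limma adjusted p under 0.05; Dlgap5 is the only filled point above 0.

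Receptors and adhesion partners held by these scaffolds all had negative differences, also under each other array scaling tried. Of 17 measured, 9 fell and 8 were not called, with a median difference of -0.27. Cacng3, an auxiliary subunit of AMPA receptors, fell by 0.82 ± 0.10 and Grm5, the metabotropic receptor that Homer binds, by 0.73 ± 0.09 (limma adjusted p = 0.00704 and 0.00715). Grin2b, an NMDA receptor subunit whose tail binds Dlg proteins, fell by 0.41 ± 0.06, Gria1, an AMPA receptor subunit, by 0.39 ± 0.05 and the adhesion gene Lrrtm2 by 0.39 ± 0.05. Lgi1, a secreted partner of the Dlg-linked receptor Adam22, fell by 0.45 ± 0.07. The count was 1 without mutant replicate 2 and 4 without wild-type replicate 2, where 145 and 335 of all rows were called. In these fits 14 and 13 of the 17 had an unadjusted limma p under 0.05. Without mutant replicate 1 the count was 12, where 2501 of all rows were called.

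Genes of calmodulin signalling, in which neurogranin acts, were measured for 15 of 17 listed. Of these 7 fell and 8 were not called, with a median of -0.22. Adcy1, a calmodulin-stimulated adenylyl cyclase, fell by 0.76 ± 0.08 and the calmodulin-dependent kinase genes Camk2b and Camk2d by 0.57 ± 0.06 and 0.59 ± 0.10. Gap43, a calmodulin-binding growth cone gene, fell by 0.22 ± 0.05, the protein kinase C gene Prkca by 0.27 ± 0.05 and the calcineurin gene Ppp3ca by 0.25 ± 0.05. The limma adjusted p-values of these 6 lay between 0.00453 and 0.0298. Calm2 and Calm3, which encode calmodulin itself, were not called, at -0.13 and -0.20. The count was 2 when wild-type or mutant replicate 2 was dropped and 3 when wild-type replicate 1 or mutant replicate 3 was. In these fits, in that order, 11, 11, 13 and 10 of the 15 had an unadjusted limma p under 0.05. Of all rows, 335, 145, 725 and 596 were called.

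Among 30 other proteins of the postsynaptic density measured, 3 fell and 27 were not called, with a median of -0.12. Agap2 fell by 0.49 ± 0.07, Ctnnd2, a catenin of dendrites, by 0.31 ± 0.07 and Akap5, an anchor for protein kinase A, by 0.23 ± 0.05 (limma adjusted p = 0.0116, 0.0355 and 0.0342). Lzts1 had the highest difference of this list, 0.19, and was not called. Tanc2 is counted as not called by its row with the most accessions (-0.21, adjusted p = 0.12), while another Tanc2 row fell by 0.24 ± 0.05 (limma adjusted p = 0.0394). The count was 6 without mutant replicate 1, 1 when wild-type replicate 1 or mutant replicate 3 was dropped, and 0 when wild-type or mutant replicate 2 was (limma, where 11 and 12 had an unadjusted p under 0.05).

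Synaptic genes outside the excitatory postsynaptic side also had negative differences, 7 of 7 inhibitory and 11 of 11 presynaptic genes. Of 7 proteins of inhibitory postsynapses, Glrb, a glycine receptor subunit gene, fell by 0.45 ± 0.07 (limma adjusted p = 0.0122) and 6 were not called, with a median of -0.20. Of 11 presynaptic active zone scaffolds, 7 fell and 4 were not called, with a median of -0.29. The release site gene Rims1 fell by 0.45 ± 0.05, Pclo by 0.38 ± 0.06, Rimbp2 by 0.36 ± 0.07, Ppfia2 by 0.30 ± 0.05, Erc2 by 0.29 ± 0.04 and the priming gene Unc13a by 0.23 ± 0.05. The presynaptic count was 1 without mutant replicate 2, 2 without wild-type replicate 2 and 3 when wild-type replicate 1 or mutant replicate 3 was dropped. In these fits, in that order, 8, 9, 8 and 8 of the 11 had an unadjusted limma p under 0.05. Of all rows, 145, 335, 725 and 596 were called. The inhibitory count was 3 without mutant replicate 1 and 2 without wild-type replicate 3. It was 0 by limma when wild-type or mutant replicate 2 was dropped, where 5 and 5 had an unadjusted p under 0.05. Whether the postsynaptic scaffolds differed from these lists was not tested.

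**Figure D4:**
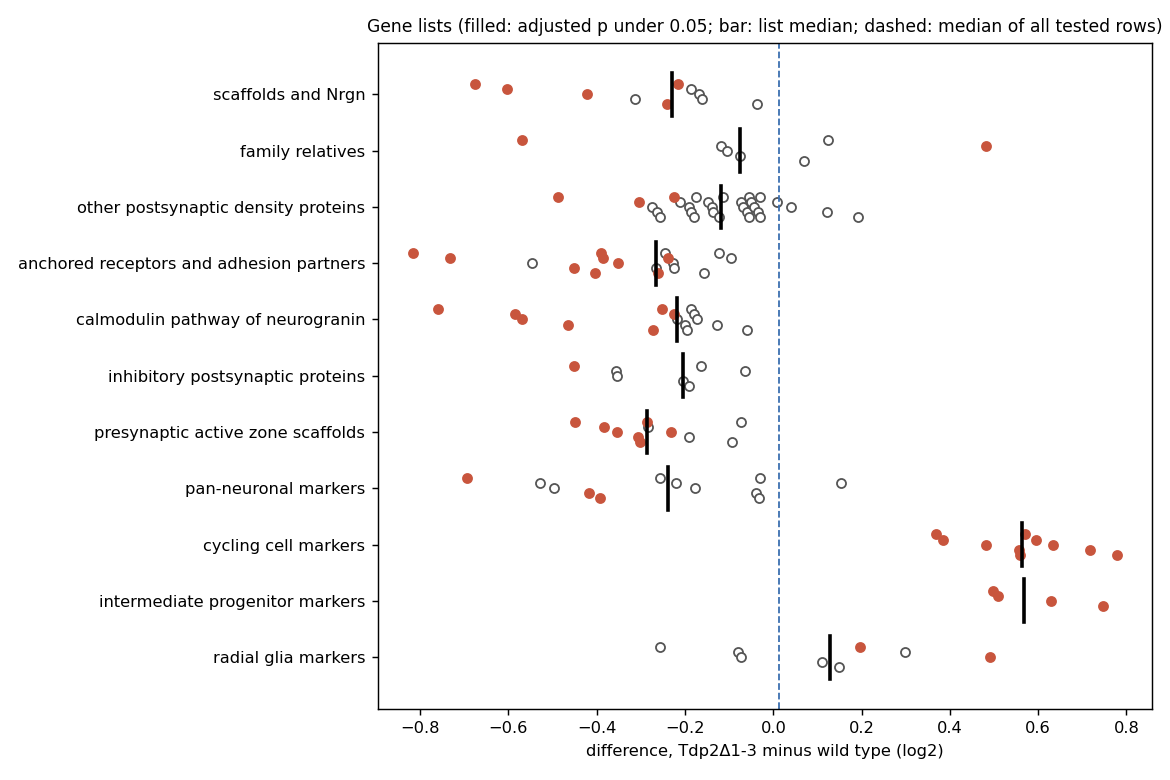
Differences, mutant minus wild type on the log2 scale, for the genes of 11 lists, with filled points at a limma adjusted p under 0.05, bars at list medians and a dashed line at the median of all rows (0.013). Apart from the relatives, the 6 synaptic lists have medians from -0.29 to -0.12, and the cycling-cell and intermediate progenitor lists 0.56 and 0.57.

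Markers of dividing cells moved in the direction opposite to the scaffold genes in these arrays. All 10 cycling-cell markers measured rose, with a median difference of 0.56, and list medians per array lay between -0.40 and -0.19 in the wild types and between 0.19 and 0.37 in the mutants. Without mutant replicate 2, 1 of them was called by limma, where all 10 had an unadjusted p under 0.05 and 145 of all rows were called. All 4 intermediate progenitor markers rose (array medians of -0.48 to -0.21 in wild types and 0.22 to 0.31 in mutants). Of 8 radial glia markers 2 rose, Nes and Vim, and 6 were not called. Negative differences were held by 3 of the 8, -0.26 for Slc1a3, -0.08 for Fabp7 and -0.07 for Hes5. With 1 array left out, 2 to 4 intermediate progenitor markers (2 without mutant replicate 2) and 0 or 1 radial glia markers were called. Without mutant replicate 2, 4 intermediate progenitor and 4 radial glia markers had an unadjusted limma p under 0.05. Of 12 pan-neuronal markers 3 fell, Syp by 0.39, Eno2 by 0.69 and Snap25 by 0.42, with array medians from 0.04 to 0.14 in the wild types and from -0.29 to -0.02 in the mutants. The other 9 were not called, with differences of -0.53 for Nefl, -0.50 for Nefm, -0.26 for Rbfox3, -0.22 for Stmn2, -0.18 for Elavl3, -0.04 for Map2, -0.03 for Dcx and for Tubb3, and 0.15 for Elavl4. Nefl and Rbfox3 were positive after cyclic loess normalization. Without mutant replicate 1 the count of called pan-neuronal markers was 7, with the replicate number as a block 6, and it was 0 by limma without wild-type replicate 1, wild-type replicate 2, mutant replicate 2 or mutant replicate 3, where 4 or 5 had an unadjusted p under 0.05. The pan-neuronal median was -0.24, and -0.10 after cyclic loess normalization. Their part in the differences of the scaffold genes was not tested. Of the remaining marker lists, 3 of 7 astrocyte, 2 of 6 oligodendrocyte lineage, 1 of 5 endothelial and 1 of 6 meningeal markers fell and 2 of 5 red-cell markers rose. The 2 were the globin genes Hbb-y (3.79) and Hba-x (1.44). The other 3 red-cell markers were not called, Hbb-bh1 at 0.14, Alas2 at -0.07 and Epb42 at -0.01. With 1 array left out, the counts called were 0 to 4 for astrocyte markers, 0 to 3 for oligodendrocyte lineage markers, 0 or 1 for endothelial and for meningeal markers, and 2 for red-cell markers each time. Astrocyte markers had no call by limma when wild-type replicate 1, wild-type replicate 2, mutant replicate 2 or mutant replicate 3 was dropped, where 3 or 4 had an unadjusted p under 0.05. None of 6 microglia and none of 5 choroid plexus markers was called by limma, and 1 and 1 had an unadjusted p under 0.05. Microglia medians lay between -0.02 and 0.01 in all arrays.

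**Figure D5:**
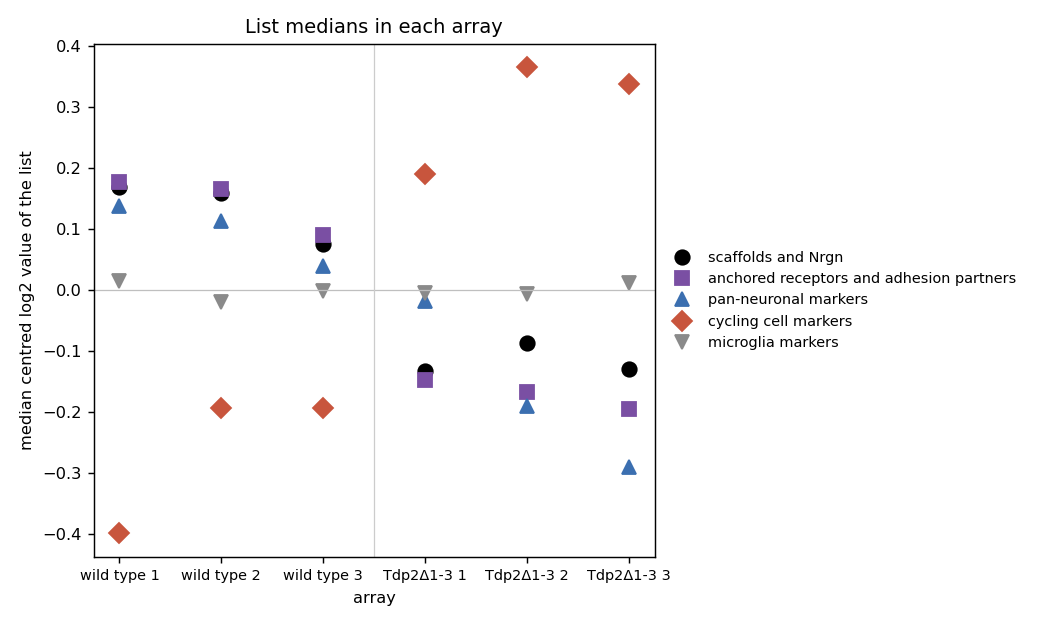
Median centred log2 value of 5 gene lists in each of the 6 arrays. The scaffold set lies between 0.08 and 0.17 in the wild types and between -0.13 and -0.09 in the mutants, cycling-cell markers run the opposite way, and microglia markers stay within 0.02 of 0.

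The genes nearest to Nrgn over the 6 arrays, by Euclidean distance between centred log2 values, were Calb2 (0.17), Scrg1 (0.21), Gabrg1 (0.23), Rxrg (0.23) and Bend6 (0.23). Calb2 encodes the calcium-binding protein calretinin, Gabrg1 a GABA-A receptor subunit and Rxrg a retinoid receptor. Their differences ran from -0.78 to -0.58. Nearest to Dlgap1 were Rasgef1a (0.06), Cntn6 (0.08), Bend6 (0.14), Slco1c1 (0.15) and Camk2b (0.15), with differences from -0.69 to -0.55. Dlgap1 had closer neighbours than Nrgn, and Bend6 stood in both lists. Likeness over 6 arrays of 2 genotypes is a description and largely follows the difference between genotypes.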

How the data were processed

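RNA of 6 embryonic brains was measured on 6 arrays, 3 per genotype, grouped by the sample titles. The authors normalized the values by Robust Multi-Array Average, as the series text states. The deposited values were taken as log2, the scale of that method. No source used here states the base, and every fold rests on it. Affymetrix Expression Console is named, per the submitters' processing notes. Each deposited row had a median of 0 to within 5e-07 over the arrays, a centring that no label describes. No filter on low values could be applied. The probe summary level and the array's genome build are not known here.

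Of 28856 rows, 23410 were annotated with at least 1 gene and were tested with limma 3.58.1 in R 4.3.3 (lmFit and eBayes, two-sided, Benjamini-Hochberg). SEs and 95% intervals are limma's moderated ones. The fitting code was tested on simulated data. P-values set each difference against the spread between brains of a genotype, moderated by a prior drawn from all tested rows. That prior gave 3.93 of the 7.93 degrees of freedom. The genes, the lists of pathway and cell type genes, the tests and the other settings were chosen with earlier results of these data known. Named genes are the 10 genes, Tdp2, up to 6 called genes per list by smallest p, and the 5 nearest rows to the 2 largest called differences. Others named (Calm2, Calm3, Lzts1, Tanc2, the uncalled relatives and the uncalled pan-neuronal, radial glia and red-cell markers) were chosen after their values were seen. Listed genes without a single-gene row were not analysed here. The series text speaks of 3 pairs of brains, but no label says that replicate numbers mark them. Deviations of same-numbered brains correlated at 0.209, 0.047 and 0.198, not all over 0.1, so the numbers were not used as a block in the fit reported. Figures were drawn with matplotlib 3.10.9.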

Additional observations from a re-analysis of the deposited data

How the results depend on the processing

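The called genes Nrgn, Dlgap1, Shank1, Dlgap3 and Shank2 kept a negative sign in all 13 alternative fits. The replicate block, the robust variance prior and the changes of tested rows cannot alter a difference, so the signs there were fixed in advance. Wild-type and mutant values of these 5 genes did not overlap, so leaving out or weighting arrays could not turn their signs either. Array medians lay between -0.011 and 0.014, so setting them equal could move a difference only slightly. The signs that changed were those of Dlg4 (0.0033 with cyclic loess) and Dlg3 (0.039 with array weights). Cyclic loess acted on centred values and so did not follow intensity. With array weights, Dlg4 (-0.34) and Homer1 (-0.19) were also called, 5425 rows were called over the whole table, and 11 other postsynaptic density, 15 receptor and adhesion, 13 calmodulin and 6 inhibitory genes. Testing all rows left Shank2 (-0.22) uncalled. At an unadjusted limma p under 0.05, 8 of the 10 genes passed, against 5115 of all 23410 rows. With a plain per-row test on 4 degrees of freedom, 0 of the 10 passed after adjustment, and 0 of all rows did. Before adjustment 8 of the 10 passed that test, against 4078 of all rows. With 1 array left out, 1 to 5 of the 10 genes were called by limma and 0 to 2 at 1.5-fold. The latter count was 0 without mutant replicate 2, where 9 of the 10 and 3718 of all rows had an unadjusted limma p under 0.05. Of all rows, 3718 to 6085 had such an unadjusted p with 1 array left out, 145 to 2501 were called and 60 to 282 were called at 1.5-fold. Each of these ranges had its low end without mutant replicate 2 and its high end without mutant replicate 1. The ranges of calls were 1 to 2 relatives, 0 to 6 other postsynaptic density genes, 1 to 12 receptor and adhesion, 2 to 9 calmodulin, 0 to 3 inhibitory and 1 to 9 presynaptic genes. Differences then ran from -0.76 to -0.60 for Nrgn, -0.47 to -0.39 for Shank1, -0.28 to -0.21 for Dlgap3, -0.25 to -0.19 for Shank2 and -0.41 to -0.24 for Dlg4. Dlgap2 minus Dlgap3 ran from -0.0001 (without mutant replicate 2) to 0.18, and Shank2 minus Shank3 from -0.0806 to 0.0173 (without wild-type replicate 2). The cause of these changes was not tested.

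With the replicate number as a block, 2400 rows, 5 of the 10 genes, 5 other postsynaptic density genes and 4 inhibitory genes were called, and the same 5 of the 10 genes as without the block. Without the block 1515 rows were called. The series text mentions pairs without saying which brains formed them. Of 6 arrays, 5 correlated best with their own number. Mutant replicate 2 correlated at 0.047 with wild-type replicate 2 and at 0.057 with wild-type replicate 3. Deviations from a genotype mean depend on each other, so these correlations cannot decide whether the numbers mark the pairs. Signal over background is unknown from centred values.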
